A study of Mus musculus with 32 samples.

Results

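The genes described here are those that license DNA for replication: the 6 subunits of the MCM helicase (Mcm2, Mcm3, Mcm4, Mcm5, Mcm6 and Mcm7), its loading factors Cdt1 and Cdc6, the inhibitor of loading Gmnn (geminin) and the replication clamp Pcna. They were chosen by symbol, and all 10 were found among the 32285 genes of the deposited count matrices. In late mitosis and G1, the origin recognition complex with Cdc6 and Cdt1 places MCM rings on DNA, and the rings become the cores of active helicases at the start of S phase. Geminin binds Cdt1 in S and G2 and so prevents a further round of loading, while Cdt1 is destroyed on the Pcna clamp that holds polymerases on DNA. In the developing cortex these genes mark dividing progenitors: apical radial glia, which express the transcription factor Sox2, and intermediate progenitors, which express Eomes (Tbr2).

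Dorsal telencephalon was profiled by droplet 3′ single-cell RNA sequencing (10x Genomics, v2 chemistry) in C57BL/6J mouse embryos, wild type (WT) or Chd8+/- (het), which carry 1 functional copy of the chromatin remodeler gene Chd8. Sampling began at E12.5 (embryonic day), went on at E14.5 and E16.0, and ended at E17.5, with 4 embryos per genotype and stage and 32 libraries in all. The extraction protocol describes het and WT embryos in pairs matched by litter and sex. Replicates are named M1 and M2 (male) and F1 and F2 (female) from the sex and number in the titles. The titles name no litter, so pairs were formed by these numbers. Het embryos carry the allele in every cell, and medial tissue, with the hippocampal primordium, was removed at dissection.

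After filtering and removal of likely doublets, 138226 of 145082 barcodes were retained, between 2399 and 6951 per library, from totals of 14710694 to 66499864 unique molecular identifiers (UMIs) per library. A cell was called Sox2-detected or Eomes-detected when it had at least 1 UMI of that gene; 54157 cells were Sox2-detected, 31949 were Eomes-detected, and 13985 were both. UMIs were summed per library within each class and expressed as CPM, the UMIs of a gene scaled to 1000000 UMIs of that sum. Chd8 itself had a mean of 43.6 CPM in WT and 36.3 CPM in het Sox2-detected cells and was lower in the het embryo in 15 of 16 pairs. The median UMI count per barcode was lower in het at E12.5, 6796 ± 2782 (SD, n = 4) against 9924 ± 817 in WT, with het M2 at the WT level (10727). At E17.5, libraries WT M1, het M1 and het F1 stood apart in Sox2-detected cells, with Top2a at 475 to 552 CPM against 232 to 299 CPM in the other 5 libraries of that stage. The labels give no capture dates, so stage and capture day cannot be told apart.

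The labels name no cell types, so the Sox2-detected and Eomes-detected classes were described with marker lists. The radial glia list holds Sox2 and the intermediate progenitor list holds Eomes, so these sums are no independent check of the classes. Summed radial glia markers in WT Sox2-detected cells rose from a mean of 3659 CPM at E12.5 to 8975 CPM at E17.5. Markers of oligodendrocyte precursors went from 1.30 CPM to 336 CPM (202 to 432 over libraries) and those of interneurons and ventral progenitors from 41.1 CPM to 476 CPM (266 to 778), with no marker of either list at 0. Both lists mark lineages that also express Sox2. In Eomes-detected cells the 6 intermediate progenitor markers summed to 3251 CPM at E12.5 and 2629 CPM at E17.5, and the 8 excitatory neuron markers to 3357 CPM and 2679 CPM. Oligodendrocyte precursor markers in that class went from 2.21 CPM (0.910 to 3.70 over libraries) to 46.2 CPM (15.2 to 78.4).

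On the mouse assembly GRCm38, with positions from the GENCODE M21 annotation, Mcm2 lies at chr6:88883474-88898780, Mcm3 at chr1:20802968-20820312, Mcm4 at chr16:15623897-15637400 and Mcm5 at chr8:75109569-75128439. Mcm6 lies at chr1:128331590-128359664 and Mcm7 at chr5:138164583-138172422. The loading factors lie at chr8:122568015-122573554 (Cdt1) and chr11:98907801-98923940 (Cdc6), Gmnn at chr13:24751845-24761923 and Pcna at chr2:132249162-132253314. Mcm5, Cdt1 and Cdc6 are on the plus strand and the others on the minus strand. Mcm7 overlaps Ap4m1 by 421 bases and Cops6 by 64 bases on the opposite strand and hosts 3 microRNA genes, and Cdt1 lies within the predicted gene Gm20388 on its own strand. The strand setting of the counting is not given in the sources used here, so reads of these overlaps may have been assigned to either gene or to none.

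Promoters of licensing genes are known to be bound by E2F factors, which RB family proteins hold inactive until late G1. The RefSeq promoter table (GRCm38.p6, 250 bases before to 50 after each gene start) had entries for 8 of the 10 genes. Its starts are its own: those of Mcm2, Mcm3 and Cdt1 fall on the outer GENCODE start given above, and those of Mcm5 and Mcm6 lie upstream of it and those of Mcm7, Cdc6 and Pcna inside the GENCODE gene. Any of the E2F-type octamers TTTGGCGC, TTTCCCGC, TTTCGCGC and TTTGCCGC, on either strand, occurred in 6 of these 8 (Mcm3, Mcm5, Mcm6, Mcm7, Cdt1 and Cdc6) and in 744 of 32851 promoters (2.26%). The 8 genes had 9 promoters, as Mcm7 had 2, and only the first Mcm7 promoter held a match. Member counts here are of genes with a match in any promoter, and background counts are of promoters. The pentamer CCAAT, on either strand, occurred in 6 of 8 (Mcm2, Mcm3, Mcm5, Mcm6, Mcm7 and Pcna) and in 12289 of 32851 promoters (37.4%). The windows that hold the E2F-type letters are shown because all 10 genes fell between E12.5 and E17.5 in WT embryos in the comparisons that follow; capitals mark the octamers, which overlap in Mcm5 and in the first match of Mcm6. A match describes the letters of these windows and is not evidence of binding.
Mcm3 promoter, chr1:20820283-20820313, minus strand: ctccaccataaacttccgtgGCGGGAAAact
Mcm5 promoter, chr8:75109336-75109387, plus strand: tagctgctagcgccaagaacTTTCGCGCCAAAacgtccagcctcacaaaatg
Mcm6 promoter, chr1:128359725-128359835, minus strand: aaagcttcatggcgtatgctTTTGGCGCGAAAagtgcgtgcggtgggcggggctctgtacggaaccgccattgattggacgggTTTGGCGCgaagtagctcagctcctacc
Mcm7 promoter, chr5:138172021-138172068, minus strand: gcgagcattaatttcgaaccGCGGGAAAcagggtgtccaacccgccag
Mcm7 promoter, chr5:138171854-138171887, minus strand: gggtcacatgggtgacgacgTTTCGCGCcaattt
Cdc6 promoter, chr11:98907993-98908040, plus strand: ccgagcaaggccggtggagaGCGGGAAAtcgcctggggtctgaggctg
The Mcm6 window holds 2 separate matches. The Mcm7 windows lie upstream of the start of its first promoter and across that start, both within the GENCODE gene. The match in Cdt1 and another in Mcm3 lie further past the start and are not shown.

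To describe the developmental course, levels were compared between stages in WT Sox2-detected cells. All 10 licensing genes fell between E12.5 and E17.5, by 0.68 (Pcna) to 1.36 (Mcm4) on the log2 scale, with a median of -1.11 against 0.05 over all genes tested. Every WT library at E17.5 was below every WT library at E12.5 for each of the 10 genes, and 19.4% of all 13844 genes tested showed that. With edgeR's quasi-likelihood test and Benjamini-Hochberg adjustment over all genes, 27.7% of genes were lower at E17.5, and the highest adjusted p among the 10 members was 9.47e-05. In such sums, fewer cells in S phase and less RNA per cell cannot be told apart.

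Of the helicase subunits, Mcm4, part of the catalytic core, had 107.5, 123.5, 117.8 and 108.6 CPM in WT M1, M2, F1 and F2 at E12.5 and 48.2, 55.3, 54.6 and 42.5 CPM at E17.5. Every early library was above every late one. Mcm7, which pairs with Mcm4 in the ring, had 322.9, 373.4, 342.9 and 339.9 CPM at E12.5 and 163.0, 148.3, 194.9 and 169.7 CPM at E17.5, a log2 change of -1.20 (SE 0.111). Mcm5, which forms the ring's gate with Mcm2, went from 191 ± 11.6 CPM (SD, n = 4) to 89.3 ± 10.9 CPM. Mcm2 went from 175 ± 13.9 to 96.0 ± 13.7 CPM, and the other subunits moved alike: Mcm3 from 162 ± 9.96 to 87.8 ± 13.7 CPM, and Mcm6 from 227 ± 10.8 to 119 ± 15.9 CPM. The fitted log2 changes of the 6 subunits lay between -1.04 (Mcm2) and -1.36 (Mcm4).

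The loading factor Cdt1 had 64.3, 76.5, 69.4 and 67.8 CPM at E12.5 and 22.8, 36.4, 38.5 and 36.5 CPM at E17.5, with WT M1 the lowest library of the late group. Its log2 change was -1.22 (interval -1.53 to -0.92). Cdc6, the ATPase that recruits Cdt1 and MCM to origins, had 25.9, 26.6, 28.3 and 25.6 CPM at E12.5 and 18.5, 16.3, 20.9 and 12.1 CPM at E17.5, a change of -0.83 (SE 0.160). The early Cdc6 libraries were close together and the late ones spread, without overlap. Gmnn had 230.6, 235.6, 240.0 and 235.7 CPM at E12.5 and 117.4, 117.1, 118.2 and 136.8 CPM at E17.5, a change of -1.12 (SE 0.113). Pcna changed least, from 263.8, 309.7, 258.6 and 297.0 CPM to 170.8, 216.3, 218.7 and 188.7 CPM (-0.68, SE 0.137). All of these changes passed the edgeR test at an adjusted p under 0.05. They also did so with the E17.5 libraries that stood apart left out, with changes between -0.64 (Pcna) and -1.37 (Mcm4). Depth fell over these stages, from a mean library median of 9924 to 4775 UMIs per barcode in WT. With cells thinned to 2000 UMIs, shallower cells left out and the classes called again from the thinned counts, so that fewer cells have a Sox2 UMI, the changes ran from -1.10 (Pcna) to -1.78 (Mcm4), with Cdc6 at -1.62. With 2 or more Sox2 UMIs per cell they ran from -0.46 (Pcna) to -1.11 (Mcm4), with Cdc6 at -0.51.

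**Figure D1:**
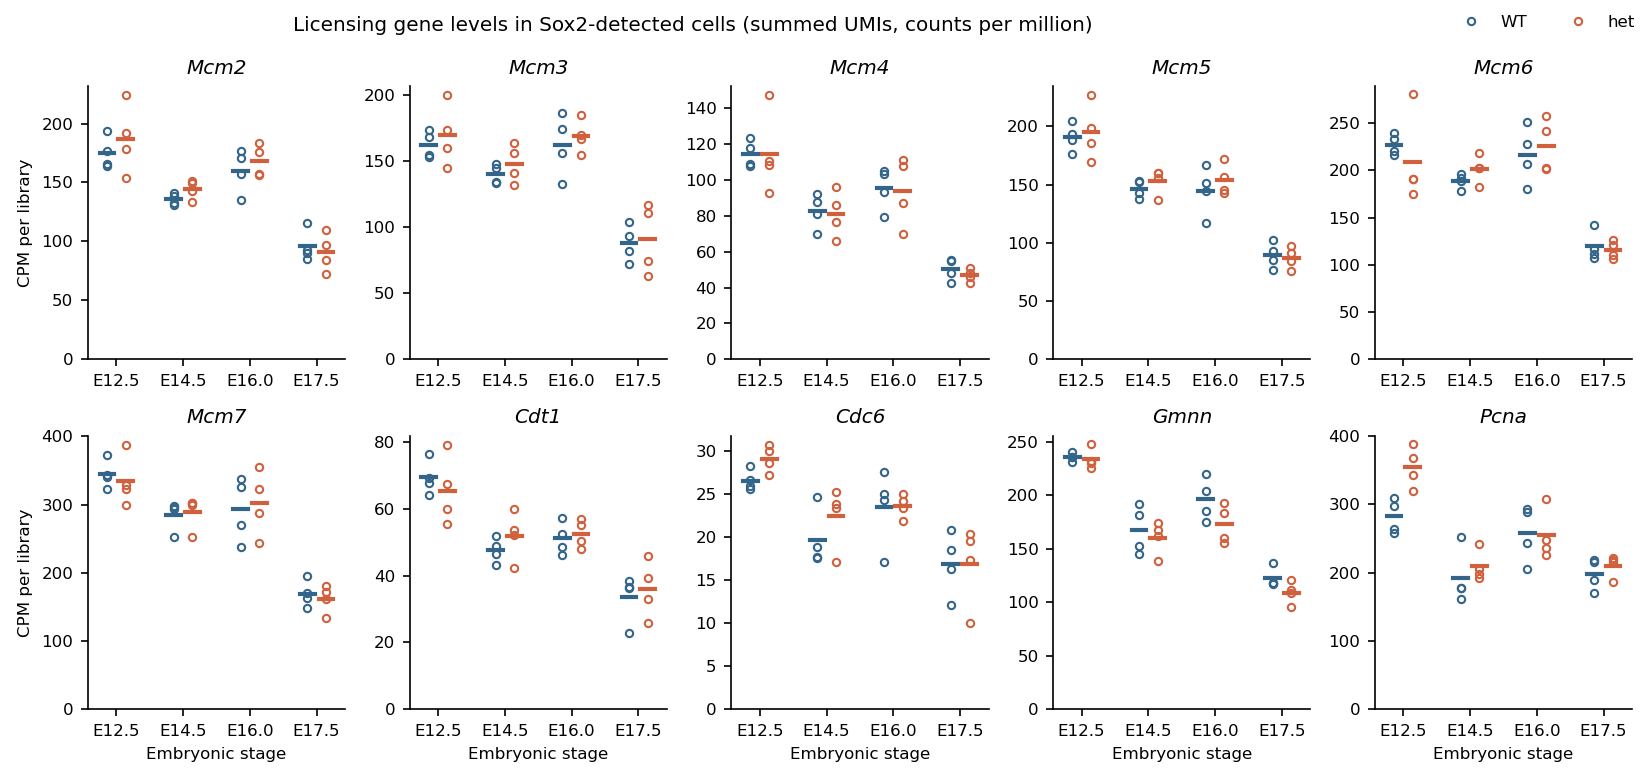
Level of each licensing gene (CPM, vertical axis from 0) in Sox2-detected cells by embryonic stage, with WT libraries in blue and het libraries in orange, open circles for single libraries and lines for the mean of 4. All 10 panels are lowest or near lowest at E17.5, the E14.5 and E16.0 libraries overlap in WT, and the genotypes overlap in every panel and stage but Pcna at E12.5.

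The course was not even across the 3 steps. From E12.5 to E14.5, all 10 genes fell in WT Sox2-detected cells, by 0.34 (Mcm3) to 0.68 (Pcna) on the log2 scale (18.7% of all genes were lower), and the E14.5 libraries lay below the E12.5 libraries without overlap for all 10 (14% of all genes). From E14.5 to E16.0, none of the 10 passed the edgeR test, with 5.15% of all genes higher and 4.36% lower. The 95% intervals of that step ran from -0.34 for Mcm5 to 0.57 for Pcna, and the WT libraries of the 2 stages overlapped for each gene. From E16.0 to E17.5, 8 of the 10 fell (10% of all genes were lower), by 0.52 (Cdt1) to 0.84 (Mcm4). The exceptions were Cdc6, at -0.40 (edgeR adjusted p = 0.0778), and Pcna, at -0.29 (edgeR adjusted p = 0.129).

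Mean CPM was higher at E16.0 than at E14.5 for every gene but Mcm5, with overlapping libraries, and the fitted change was above 0 for 7 of the 10. Mcm2 stood at 136 ± 4.69 CPM at E14.5 and 160 ± 18.5 CPM at E16.0, Mcm3 at 140 ± 7.43 and 163 ± 23.4 CPM, and Mcm4 at 82.7 ± 9.74 and 95.3 ± 11.8 CPM. The remaining subunits stood at 146 ± 7.28 and 145 ± 20.9 CPM (Mcm5), 189 ± 7.60 and 217 ± 30.5 CPM (Mcm6), and 285 ± 22.2 and 293 ± 46.9 CPM (Mcm7). None of these genes passed the test between the middle stages, and their libraries overlapped. Cdt1 stood at 47.7 ± 3.76 and 51.2 ± 4.91 CPM, Cdc6 at 19.7 ± 3.33 and 23.6 ± 4.49 CPM, and Gmnn at 168 ± 22.7 and 196 ± 19.96 CPM. Pcna had 161.7, 177.5, 251.9 and 177.1 CPM at E14.5 and 288.8, 293.2, 205.9 and 243.6 CPM at E16.0, with F1 the highest library at E14.5 and the lowest at E16.0. By mean CPM, the order of stages was E12.5, E16.0, E14.5 and E17.5 for Mcm2, Mcm4, Mcm6, Mcm7, Cdt1, Cdc6 and Gmnn. Pcna and Mcm5 departed from it: Pcna at E17.5 (199 ± 23.0 CPM) was close to E14.5 (192 ± 40.6 CPM), and Mcm5 was level at E14.5 and E16.0. Mcm3 had the same mean at E12.5 and E16.0 within its spread.

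**Figure D2:**
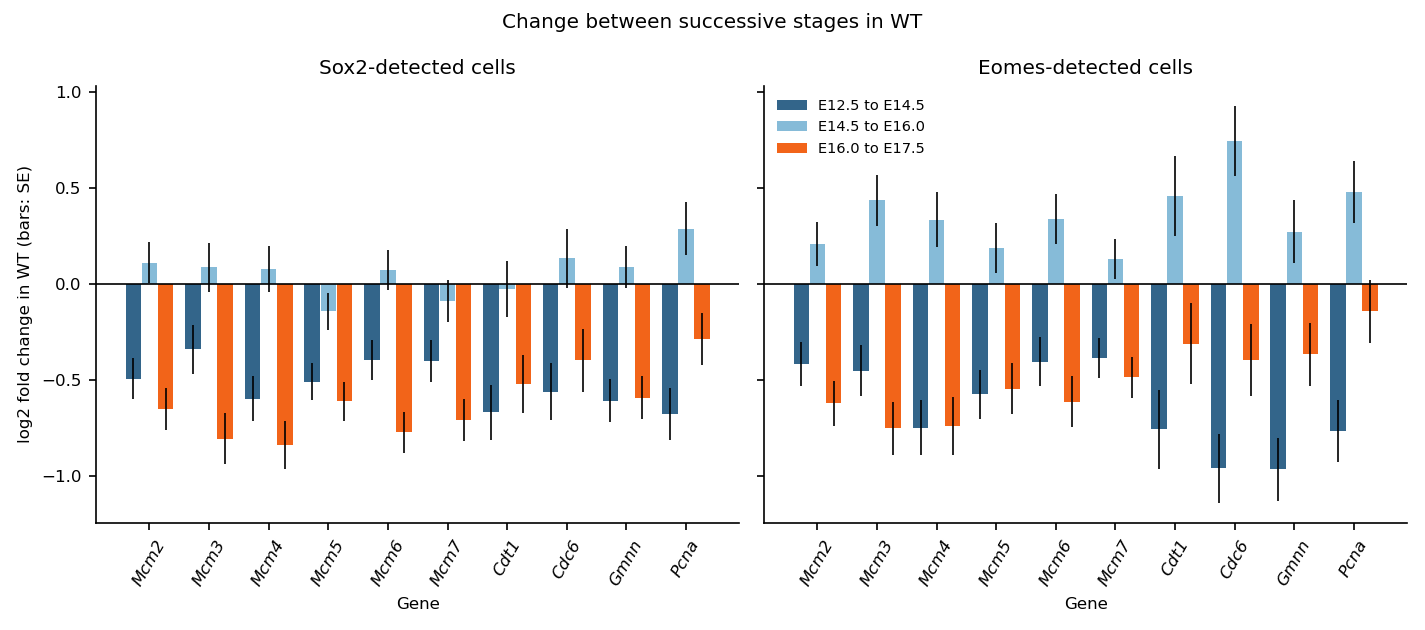
Fitted log2 fold change of each licensing gene between successive stages in WT, with bars for the standard error, in Sox2-detected (left) and Eomes-detected cells (right). The first and last steps are below 0 for all 10 genes in both classes, and the middle step is above 0 for all 10 genes in Eomes-detected cells, where 2 of them (Mcm3 and Cdc6) passed the test.

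In Eomes-detected cells of WT embryos, all 10 genes were also lower at E17.5 than at E12.5 (24.7% of 13130 genes were lower), with changes from -0.44 (Pcna, edgeR adjusted p = 0.025) to -1.16 (Mcm4). The groups did not overlap for 8 of the 10 (17.7% of all genes). The subunits fell by 0.69 (Mcm6) to 1.16 (Mcm4), Gmnn by 1.06, and Cdc6 and Cdt1 by 0.62 each. The calls on Pcna and Cdt1 depended on single libraries and on the cells that also had Sox2. With cells of both markers left out, Pcna was at -0.21 (edgeR adjusted p = 0.409) and Cdt1 at -0.32 (edgeR adjusted p = 0.378), and the other 8 genes were called. With the stages fitted alone, Cdt1 was at -0.59 (edgeR adjusted p = 0.0543). Pcna was at -0.35 (edgeR adjusted p = 0.0994) without WT M2 of E12.5, at -0.35 (edgeR adjusted p = 0.0987) without WT M1 of E17.5 and at -0.40 (edgeR adjusted p = 0.0625) without WT F2 of E17.5. Cdt1 was at -0.53 (edgeR adjusted p = 0.0536) without WT M2 of E12.5 and at -0.49 (edgeR adjusted p = 0.0725) without WT M1 of E17.5. With the 3 E17.5 libraries that stood apart left out, Pcna was at -0.35 (edgeR adjusted p = 0.0756) and the other 9 genes were called. When a cell needed 2 or more Eomes UMIs, 7 of the 10 genes were called, without Cdt1 (-0.12), Cdc6 (-0.17) and Pcna (-0.23). Among the called genes Mcm3 was then at -0.36 and Mcm6 at -0.39. In thinned cells all 10 were called, from -0.70 (Pcna) to -1.45 (Mcm4), with Cdc6 at -1.15.

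Mean WT levels in Eomes-detected cells dipped at E14.5. Cdc6 had 15.2, 14.9, 19.8 and 15.4 CPM at E12.5, 8.45, 9.54, 9.19 and 7.57 CPM at E14.5, 20.25, 15.05, 10.63 and 17.45 CPM at E16.0, and 13.9, 9.17, 15.3 and 8.62 CPM at E17.5. Its E14.5 libraries lay below every E12.5 and E16.0 library. Mcm3 had 73.1, 98.4, 89.3 and 76.7 CPM, then 61.3, 62.5, 71.7 and 59.2 CPM, then 101.3, 102.8, 79.2 and 93.9 CPM, and at E17.5 61.3, 44.4, 58.6 and 52.7 CPM, so that it too was lower at E14.5 than at both neighbouring stages. The first step was called in all 10 genes, from -0.39 (Mcm7) to -0.97 (Gmnn), with 15% of all genes lower and no overlap in 10 of 10 (14.2% of all genes). From E14.5 to E16.0, Mcm3 (0.43, edgeR adjusted p = 0.0424) and Cdc6 (0.74, edgeR adjusted p = 0.0112) rose (3.99% of all genes were higher), and E16.0 libraries lay above E14.5 libraries without overlap for 7 of the 10 (17% of all genes). From E16.0 to E17.5 the 6 MCM genes fell (4.46% of all genes were lower), by 0.49 (Mcm7) to 0.75 (Mcm3), while Cdt1, Cdc6, Gmnn and Pcna did not pass the test (-0.14 to -0.40).

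Het embryos, which are separate animals, were read in the same way. From E12.5 to E17.5, all 10 genes fell in het Sox2-detected cells, by 1.04 (Pcna) to 1.57 (Mcm4) on the log2 scale (30.7% of all genes were lower). In het Eomes-detected cells 9 of the 10 fell (28.8% of all genes), and Cdt1 was at -0.44 (edgeR adjusted p = 0.0859). The Cdt1 libraries spread widely there, from 17.4 to 47.2 CPM at E12.5 and from 17.7 to 43.8 CPM at E17.5. In het Eomes-detected cells the step from E12.5 to E14.5 was called lower in 8 of the 10 genes (18.7% of all genes). The rise from E14.5 to E16.0 called in WT for Mcm3 and Cdc6 was not called in het for any member. The het values of that step lay between 0.11 and 0.35, with 3.5% of all genes higher. Genotype by stage was tested over all 4 stages at once. None of the 10 genes passed this test in either class, and 0 of all genes did in edgeR (6.02% in Sox2-detected and 4.57% in Eomes-detected cells had an unadjusted p under 0.05). Without het M2 of E12.5, 105 and 43 genes passed, none of them a member.

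The other genes of the replication pathway were read from 7 lists of pathway members, beside 27.7% lower and 32.2% higher among all genes. In WT Sox2-detected cells, 6 of 6 origin recognition genes were lower at E17.5 than at E12.5, among them Orc1, the ATPase subunit (-1.75). Of the genes that turn loaded MCM into an active helicase, 12 of 15 were lower and none higher, with Recql4 at -1.10 and the GINS subunit Gins3 at -1.07. Of the fork and synthesis genes, 23 of 24 were lower, including the chromatin assembly subunit Chaf1b (-1.22), the polymerase delta subunit Pold1 (-1.13) and the flap nuclease Fen1 (-1.07). Nucleotide supply genes were lower in 6 of 6, with the dUTPase gene Dut at -1.16. Genes of licensing turnover and its kinases were lower in 7 of 9, with cyclin E1 (Ccne1) at -1.53 and Dtl, which directs the destruction of Cdt1, at -1.22. E2F and RB family genes moved both ways: 5 of 11 were lower, with E2f4 at -1.20, and 2 were higher, with Rbl2 at 1.04, and the median was -0.24 against 0.05 for all genes. Of the 15 G2/M genes, 9 were lower and 1 higher, with a median of -0.59, against a median of -1.11 for the licensing genes.

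In Eomes-detected cells 24.7% of all genes were lower at E17.5 and 25.9% higher. There 6 of 6 origin recognition, 10 of 15 helicase activation, 19 of 24 fork, 6 of 6 nucleotide supply and 7 of 9 turnover genes were lower, and none of these lists had a higher member. The E2F and RB list had 4 lower and 1 higher of 11, with a median of -0.35 against 0.02 for all genes. The G2/M list had 11 lower and 1 higher of 15, with a median of -0.71, close to the median of -0.76 for the licensing genes in this class.

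Over all retained cells of WT embryos, the 10 genes were lower at E17.5 by 1.54 to 2.47 on the log2 scale, where 32.9% of all genes were lower. Those changes were larger than within the Sox2-detected class, and fewer progenitors and less RNA per progenitor cannot be told apart in them. The share of Sox2-detected cells went from 72.1% ± 3.84 of a WT library at E12.5 to 18.9% ± 4.28 at E17.5 (SD, n = 4), and that of Eomes-detected cells from 22.7% ± 2.10 to 18.7% ± 3.41. Detection of a marker depends on depth, which fell from a mean library median of 9924 to 4775 UMIs per barcode. The part of depth in these shares was not tested, so the direction for Eomes-detected cells is uncertain.

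To compare the marker classes, cells with Sox2 and no Eomes UMI (40172 cells) were set against cells with Eomes and no Sox2 UMI (17964 cells). Both came from the same libraries, with the library as a block. Eomes-detected cells also held excitatory neuron markers in the amounts given above. Eomes-only cells may thus include cells that are becoming neurons, and their part in the differences was not tested. All 10 genes were lower in Eomes-only cells (42.1% of 13441 genes were lower, and 83.4% differed in either direction). The smallest differences were those of Mcm2 (-0.69, SE 0.039) and Mcm7 (-0.73, SE 0.028). The largest were those of Mcm3 (-1.80, SE 0.053) and Gmnn (-1.69, SE 0.045), so that 2 subunits of the same ring stood at opposite ends of the range. Between them lay Mcm6 (-1.12), Pcna (-1.18), Mcm5 (-1.31), Mcm4 (-1.32), Cdc6 (-1.40) and Cdt1 (-1.40). Eomes-only cells had fewer UMIs than Sox2-only cells at E12.5, with library medians of 7061 to 8676 against 9538.5 to 11302 in WT. With every cell thinned to 2000 UMIs and the classes called again from the thinned counts, all 10 genes were still called lower. The differences were smaller, from -0.41 (Mcm2) and -0.46 (Mcm7) to -1.28 (Gmnn), with Mcm3 at -1.21. A cell with both markers can lose 1 of them on thinning and enter a single-marker class, and the part of this was not tested.

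Among pathway genes the same contrast gave 15 of 15 helicase activation, 24 of 24 fork, 6 of 6 nucleotide supply and 15 of 15 G2/M genes lower in Eomes-only cells. The called genes with the largest differences of these lists were Gins2 (-1.85), the polymerase epsilon subunit Pole2 (-1.75), the thymidine kinase Tk1 (-1.70) and the mitotic kinase Aurkb (-1.72). Origin recognition genes differed less, with 4 of 6 lower and a median of -0.26; Orc1 was at -1.65 and Orc6 at -0.40. E2F and RB genes were lower in 9 of 11, with E2f8 at -2.07, and higher in 2 (41.4% of all genes were higher).

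The class difference was smaller at E17.5 than at E12.5, without an even course between. At E12.5 it lay between -0.83 (Mcm2) and -2.02 (Mcm3), with 40.2% of all genes lower, and at E14.5 between -0.84 and -2.35 (36%). At E16.0 it lay between -0.60 and -1.76 (37%), and at E17.5 between -0.18 (Mcm7, edgeR adjusted p = 0.0158) and -1.31 (28.8%). Tested directly, in a contrast added after the data were seen, the difference was smaller at E17.5 than at E12.5 in 9 of the 10 genes, where 27.5% of all genes moved that way. The move was 1.16 (SE 0.181) for Cdt1, 0.92 (SE 0.084) for Mcm7 and 0.89 for Mcm6, and 0.33 for Mcm2; Gmnn, at 0.29 (edgeR adjusted p = 0.0799), did not pass. Gmnn passed with no low-count filter (0.34, edgeR adjusted p = 7.3e-06), without het M1 of E12.5 (0.33, edgeR adjusted p = 0.0445) and without the 3 E17.5 libraries that stood apart (0.40, edgeR adjusted p = 0.0345). In thinned cells 7 genes passed, Gmnn (0.44) among them, and Mcm4 (0.36), Mcm5 (0.43) and Cdc6 (0.32) did not. With 2 or more UMIs of the marker 6 genes passed, and Mcm2 (0.16), Mcm4 (0.28), Cdc6 (0.56) and Gmnn did not. DESeq2 called 8, without Mcm2 (0.25) and Gmnn, and the fit without the library block 7, without Mcm2 (0.29), Mcm4 (0.35) and Gmnn. The call on Mcm2 was lost without any of 5 single libraries, with values of 0.26 to 0.28 without WT F2 of E12.5 or WT M1, het M2 or het F2 of E17.5 and 0.29 without WT F2 of E17.5, and that on Mcm4 without het F2 of E17.5 (0.28).

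Both classes changed with age in WT embryos. From E12.5 to E17.5, all 10 genes fell in Sox2-only cells, by 0.81 (Pcna) to 1.55 (Mcm4) on the log2 scale (28.1% of 13251 genes were lower). In Eomes-only cells 8 of the 10 fell, by 0.39 (Mcm7) to 1.24 (Mcm4) (21.1% of 12055 genes were lower), and the exceptions were Pcna and Cdt1, with the values given above. E17.5 libraries lay below E12.5 libraries without overlap for all 10 genes in Sox2-only cells (19.3% of all genes) and for Mcm2, Mcm4, Mcm5, Cdc6 and Gmnn in Eomes-only cells (15.2% of all genes). Levels are given for the 2 genes with the widest narrowing. Mcm7 in WT Sox2-only cells had 334.6, 384.8, 350.3 and 348.6 CPM at E12.5 and 136.7, 146.4, 162.8 and 158.1 CPM at E17.5. In Eomes-only cells it had 171.8, 187.7, 140.6 and 141.7 CPM at E12.5 and 135.8, 120.5, 143.6 and 131.6 CPM at E17.5, so the early gap between the classes was nearly closed. Its Eomes-only libraries overlapped between the stages, with a called change of -0.39. Cdt1 in Sox2-only cells had 69.0, 81.3, 73.0 and 71.9 CPM at E12.5 and 18.0, 32.9, 35.4 and 33.0 CPM at E17.5. In Eomes-only cells it had 21.74, 23.03, 17.01 and 18.18 CPM and 12.77, 16.03, 18.62 and 22.00 CPM, overlapping, with no called change. Markers of oligodendrocyte precursors and of interneurons and ventral progenitors rose over the same stages in the Sox2-detected class by the amounts given above, and their part in the narrowing was not tested.

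**Figure D3:**
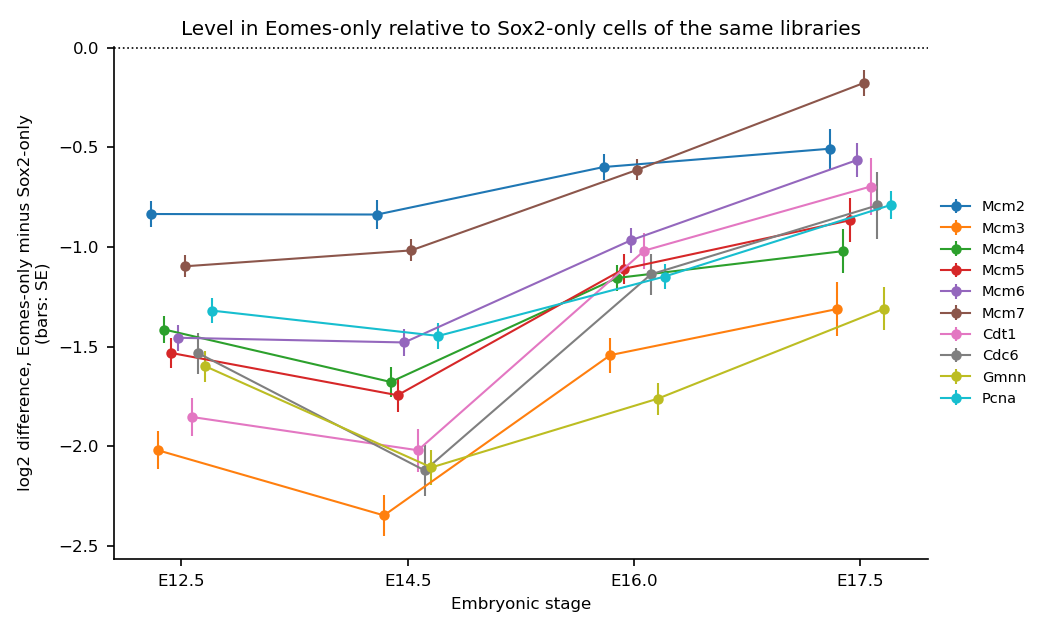
Fitted log2 difference of each licensing gene, Eomes-only minus Sox2-only cells of the same libraries (vertical axis), by embryonic stage, with bars for the standard error. All points are below 0, the deepest is Mcm3 at E14.5 (-2.35), and the lines come nearer to 0 at E17.5, where Mcm7 is at -0.18.

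Detection per cell gives the background against neurons, defined as cells with Neurod2 or Neurod6 and without Sox2 or Eomes UMIs (55219 cells). Mcm7 had at least 1 UMI in a mean of 70.0% of Sox2-detected, 58.2% of Eomes-detected and 37.4% of neuronal cells over 32 libraries. After every cell was thinned to 2000 UMIs and the classes called again from the thinned counts (27104, 20458 and 61320 cells), these shares were 36.4%, 27.5% and 16.8%. Pcna went from 59.8%, 42.2% and 26.6% to 31.3%, 18.7% and 11.1% on thinning, so both genes had a sizeable background in neurons. Gmnn had 53.2%, 30.4% and 8.60%, and after thinning 24.6%, 11.8% and 4.0%. Cdt1 had 26.6%, 14.3% and 3.66%, and Cdc6 13.5%, 7.30% and 1.43%; after thinning Cdc6 was at 3.87%, 2.05% and 0.509%. For each of these genes the order of the 3 classes was the same with and without thinning, and the share in the neuron class is given as the background. Progenitors whose Sox2 or Eomes was missed can fall into that class, which grew on thinning. Top2a in it ran from 4.21 to 56.8 CPM over libraries. Any of the 6 MCM genes was seen in 85.0%, 75.9% and 53.8% of cells, and after thinning in 64.5%, 48.9% and 28.4%. Before thinning the share in the neuron class ran from 34.9% to 90.4% over libraries.

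Within each class, cells were next split by whether they had a UMI of Top2a, a topoisomerase gene expressed from S phase into mitosis. In Eomes-detected cells the 10 genes were higher in cells with Top2a in 30 to 32 of 32 libraries, with median ratios from 2.03 (Mcm2) to 7.04 (Gmnn). In Sox2-detected cells the ratios were smaller and less regular. Gmnn, which accumulates from S phase until mitosis, had a ratio of 3.14 and was higher in 32 of 32 libraries, and Pcna a ratio of 2.05 in 30 of 32. Mcm2 had a ratio of 1.10 and was higher in 21 of 32, and the other MCM genes and loaders had ratios from 1.26 (Mcm4) to 1.62 (Mcm5), higher in 22 to 25 of 32 libraries; these medians pool stages that went opposite ways. Having a Top2a UMI also depends on the depth of a cell, and the part of depth was not tested.

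The split in Sox2-detected cells went opposite ways at the first and last stages. In WT at E12.5, Mcm2 was at 160 CPM in cells with Top2a and 220 CPM in cells without, lower in 4 of 4 libraries. The other MCM genes, Cdt1 and Cdc6 were likewise lower in cells with Top2a in 4 of 4 libraries, with median ratios from 0.674 (Cdc6) to 0.939 (Mcm7). Gmnn (1.40) and Pcna (1.08) were higher in 4 of 4. In het at E12.5 the pattern was less regular, with Pcna higher in 2 of 4 libraries (0.972) and Mcm7 in 1 of 4 (0.876), while the other 5 MCM genes, Cdt1 and Cdc6 were lower and Gmnn higher in all 4. At E17.5 all 10 genes were higher in cells with Top2a in 4 of 4 WT and 4 of 4 het libraries, in WT with median ratios from 1.72 (Mcm4) to 5.01 (Gmnn). Mcm2 was then at 123 CPM against 72.5 CPM, and Gmnn, at 253 against 181 CPM at E12.5, was at 208 against 46.2 CPM. Among WT Sox2-detected cells with Top2a, mean Pcna was 287 CPM at E12.5 and 294 CPM at E17.5, and Cdc6 23.8 and 25.4 CPM. The other members were lower there at E17.5. Among WT Eomes-detected cells with Top2a, means of Mcm3, Mcm6, Cdt1, Cdc6 and Pcna (236 and 299 CPM) were higher at E17.5. Those of the other members were lower, with Mcm2 at 153 and 151 CPM. The change of these ratios and means with stage was not tested.

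**Figure D4:**
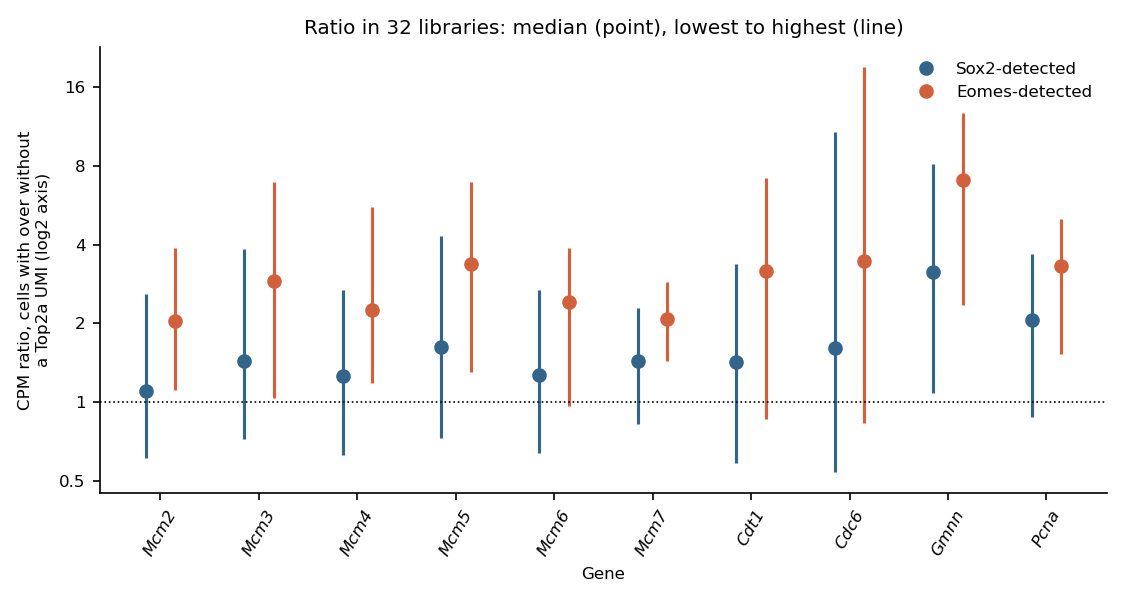
Ratio of CPM in cells with over cells without a Top2a UMI for each licensing gene (vertical axis, log2 scale), with the median of 32 libraries as a point and the lowest to highest library as a line, in Sox2-detected and Eomes-detected cells. Gmnn has the highest median in both classes (3.14 and 7.04), and in Sox2-detected cells the lines of all genes but Gmnn cross 1.

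The genotype comparison asks whether loss of 1 Chd8 copy altered licensing genes in Sox2-detected or Eomes-detected cells. None of the 10 genes differed between het and WT on average over the stages, in Sox2-detected cells (66 of 13844 genes, 0.477%, were called), in Eomes-detected cells (45 of 13130 genes, 0.343%) or over all retained cells (53 of 15882 genes, 0.334%). At an unadjusted p under 0.05 there was 1 member in Sox2-detected cells (8.83% of all genes), 2 in Eomes-detected cells (8.97%) and 0 over all cells (6.77%). In both classes 8 of the 10 fold changes were above 0, with medians of 0.05 and 0.08 log2 against -0.00 for all genes tested, and the signs of Mcm4, Mcm6 and Mcm7 changed under other settings in both classes, those of Mcm3 in Sox2-detected and Gmnn in Eomes-detected cells in some. Genes of S phase were already known to lie slightly higher in het as a set in these samples, so that count and the direction are no independent evidence. The 95% intervals of the averaged difference lay within -0.21 to 0.28 log2 in Sox2-detected and -0.19 to 0.44 log2 in Eomes-detected cells, which bounds differences of either sign without showing that the genotypes are alike.

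In Sox2-detected cells the MCM genes had averaged log2 differences between -0.02 (Mcm4, interval -0.15 to 0.10) and 0.08 (Mcm3, interval -0.05 to 0.21). The het embryo was higher in 12 of 16 pairs for Mcm2, 11 for Mcm3 and Mcm5, 10 for Mcm7, 9 for Mcm6 and 8 for Mcm4. Cdt1 (0.06) and Cdc6 (0.10) were each higher in 9 of 16 pairs. Over the alternatives Cdt1 ran from 0.016 without WT M1 of E17.5 to 0.13 in thinned cells. Cdc6 ran from 0.033 without the 3 E17.5 libraries that stood apart to 0.14 without het M2 of E17.5. Gmnn had the lowest value, -0.09 (interval -0.21 to 0.02, edgeR adjusted p = 0.708), with het above WT in 2 of 16 pairs. Its levels at E17.5 were 117.4, 117.1, 118.2 and 136.8 CPM in WT and 111.7, 108.2, 95.4 and 120.5 CPM in het, which overlap. Pcna had the highest value, 0.14 (interval 0.00 to 0.28, edgeR adjusted p = 0.541), with 13 of 16 pairs higher in het. Over the alternatives it ran from 0.046 without stage E12.5 to 0.19 without stage E16.0.

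In Eomes-detected cells Cdc6 had the highest averaged value, 0.26 (SE 0.091, edgeR adjusted p = 0.337, higher in 12 of 16 pairs), followed by Pcna at 0.20 (SE 0.081, edgeR adjusted p = 0.443, 13 of 16 pairs). Neither passed. At E14.5, 3 genes of that class had het libraries above WT libraries without overlap (1.17% of all genes did). Cdc6 had 8.45, 9.54, 9.19 and 7.57 CPM in WT and 10.93, 12.47, 12.30 and 10.98 CPM in het. Cdt1 had 19.8, 22.5, 24.3 and 24.7 CPM in WT and 26.3, 29.1, 26.7 and 31.5 CPM in het. Mcm6 had 108.9, 112.3, 111.8 and 106.4 CPM in WT and 139.9, 125.6, 123.0 and 118.2 CPM in het. None of them passed the test at that stage (log2 differences of 0.42, 0.31 and 0.19, edgeR adjusted p = 1 for each), where 0 of 13130 genes passed and 2.16% had an unadjusted p under 0.05.

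**Figure D5:**
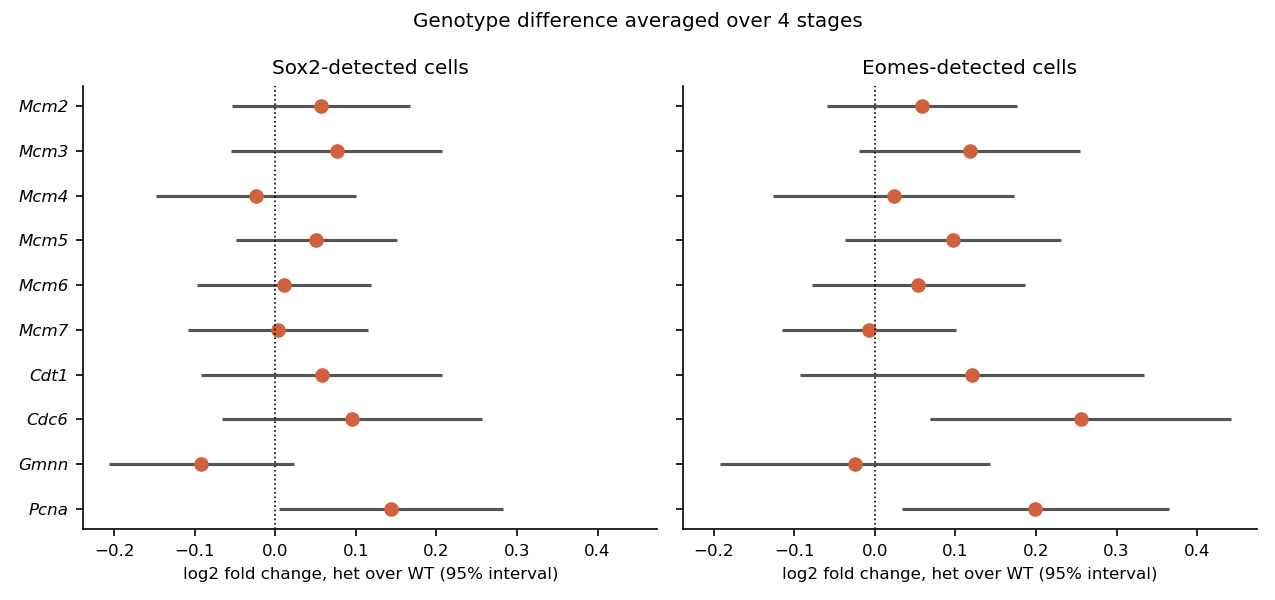
Log2 fold change of het over WT averaged over the 4 stages for each licensing gene, with 95% intervals as lines and 0 dotted, in Sox2-detected (left) and Eomes-detected cells (right). The intervals of Pcna in both classes and of Cdc6 in Eomes-detected cells lie above 0 before adjustment, and none of the 20 values passed the test after it.

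Pcna at E12.5 was the member with the widest genotype difference in Sox2-detected cells. WT M1, M2, F1 and F2 had 263.8, 309.7, 258.6 and 297.0 CPM and het had 343.2, 367.7, 389.2 and 319.2 CPM. All 4 het libraries were above all 4 WT libraries, the only such case among the 10 genes and 4 stages in this class (4.27% of all genes showed it at E12.5), and het was higher in 4 of 4 pairs. The fitted difference was 0.41 (SE 0.135, interval 0.14 to 0.69) and did not pass the edgeR test (adjusted p = 0.0974), which called 164 genes (1.18%). For this difference 41 alternatives were added after the data were seen. Most of them left out 1 library, often of another stage, which keeps all E12.5 libraries. The alternatives are thus not independent tests, and their count is no weight for or against the call. The difference was uncalled in 38 and passed in 3. These were the pair by replicate number as a block (0.40, edgeR adjusted p = 0.0174), DESeq2 (0.44, DESeq2 adjusted p = 0.0342) and edgeR without het M2, whose depth was that of WT (0.44, adjusted p = 0.0445). Under those settings 2076, 938 and 1938 genes were called at E12.5. With cells thinned to 2000 UMIs it was 0.28 (edgeR adjusted p = 0.382), and the part of the lower het depth at this stage was not tested beyond that.

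Library het M2 of E12.5 was also the highest of the 4 het libraries for 7 of the 10 genes in Sox2-detected cells (the 6 MCM genes and Cdt1) and for all 10 in Eomes-detected cells. Mcm6 shows this, with 191.3, 280.7, 191.0 and 174.6 CPM in het M1, M2, F1 and F2 against 216.2, 239.3, 232.9 and 220.3 CPM in WT. The same library had the highest depth of its group, and the part of depth was not tested.

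At the later stages Pcna overlapped between genotypes. It had 192.6, 198.3, 242.7 and 205.1 CPM in het at E14.5, 307.5, 226.3, 236.5 and 247.4 CPM at E16.0, and 218.6, 220.9, 186.7 and 215.0 CPM at E17.5. The fitted differences were 0.12, -0.02 and 0.06. In Eomes-detected cells at E12.5, Pcna had 166.9, 211.9, 160.9 and 182.1 CPM in WT and 214.4, 267.1, 220.8 and 197.0 CPM in het, overlapping, with a difference of 0.40 (edgeR adjusted p = 0.242, 0.48% of all genes called). Summed radial glia markers of that class were lower in het at E12.5 (1697 CPM, 1244 to 2347, against 2144 CPM, 2017 to 2245). Summed intermediate progenitor markers were higher (4311 against 3251 CPM). That list holds Eomes, which defines the class, and het depth was lower at this stage. The part of these marker differences was not tested. In the edgeR fit of stage and genotype groups, which did not use the pairs, no member passed between genotypes at any single stage in either class. With the pair as a block, Pcna passed at E12.5 in Sox2-detected cells, as given above. In the fit without pairs, few of all genes passed at the later stages. In Sox2-detected cells edgeR called 0 genes at E14.5 (2.22% at an unadjusted p under 0.05), 0.0217% at E16.0 (2.49%) and 0 at E17.5 (4.94%), beside 1.18% at E12.5 (18%). In Eomes-detected cells it called 0.48% at E12.5 (14%), 0 at E14.5 (2.16%) and 0.00762% each at E16.0 (1.76%) and E17.5 (5.56%). These counts moved widely with the settings and with the libraries left out. Summed over the stages, 167 genes were called in Sox2-detected cells, 1 in thinned cells, and 10 (without het F1 of E12.5) to 1941 (without het M2 of E12.5) with single libraries left out. In Eomes-detected cells 65 were called, 0 with each stage fitted alone, and 3 (without het F1 or het F2 of E12.5) to 1247 (without het M2 of E12.5) with single libraries left out.

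Pathway lists gave no called gene between genotypes either. In Sox2-detected cells, where 49.9% of all genes had a value above 0, this held for 3 of 6 origin recognition, 9 of 15 helicase activation, 18 of 24 fork, 3 of 6 nucleotide supply, 5 of 9 turnover, 6 of 11 E2F and RB and 9 of 15 G2/M genes. In Eomes-detected cells (49.2% of all genes) the counts were 5, 12, 19, 4, 6, 7 and 12 in the same order. As for the members, S phase genes were already known to lie slightly higher in het in these samples. These counts are therefore no independent evidence. The medians of the lists lay between -0.02 (nucleotide supply) and 0.05 (fork) log2 in Sox2-detected cells and between 0.04 and 0.07 log2 in Eomes-detected cells. The lowest p of the helicase activation list was that of the GINS subunit Gins4 (0.12, edgeR adjusted p = 0.202, in Sox2-detected cells), and the lowest of the fork list that of the clamp loader subunit Rfc4 (0.14, edgeR adjusted p = 0.193, in Eomes-detected cells).

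Within groups, the 10 genes varied together only in part. Pearson's r of log2 CPM (with 1 CPM added) in Sox2-detected cells was computed over the 32 libraries on deviations from the 8 stage and genotype group means, as a description. Over the 45 pairs of members it ran from -0.135 to 0.861, with a median of 0.495, and the points share the depth and cell mix of their libraries. Of 4708 genes at a sufficient level, those most like Mcm6 were Gart (r = 0.894), Mcm7 (0.861) and Mcm5 (0.851), and those most like Mcm2 were Gart (0.855), Mcm5 (0.848) and Shmt1 (0.842). Gmnn was most like Tipin (0.884), Dut (0.878) and Pttg1 (0.877). Pcna was most like Cdk2 (0.891), Rpl9-ps6 (0.862) and Ptma (0.812), and Cdt1 most like Ung (0.863). Cdc6 was most like the clamp loader gene Rfc3 (0.848), Mcm4 most like Aco1 (0.836), Mcm5 most like Mcm6 (0.851) and Mcm7 most like Gart (0.869).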

How the data were processed

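Raw UMI counts per gene and barcode were used as deposited by the authors for 32 libraries. Per the submitters' processing notes, the tools were Cell Ranger and STARsolo of STAR 2.7.9a with genome build mm10 (annotation and strand setting: not given in the sources used here). Filters on depth (1000 UMIs or more), genes (500 or more) and mitochondrial share (10% or less) left 143697 barcodes, and 5471 likely doublets were removed with a simulated-doublet neighbour score (30 principal components, 2000 variable genes, 20 neighbours, 0.5 simulated doublets per cell, 0.8% per 1000 cells). Library pairs shared at most 1.30% of barcodes of the smaller library.

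UMIs were summed per library and class, and cells with both markers entered both classes. Sums were tested with edgeR 4.0.16 in R 4.3.3 (TMM scaling, filterByExpr, quasi-likelihood test, 8 stage and genotype groups, Benjamini-Hochberg adjustment over all genes tested, threshold 0.05). CPM values in the text are unscaled; fold changes include TMM. P-values rest on the spread between embryos. Alternatives were DESeq2 1.42.0, no low-count filter, the pair as a block, doublets kept, thinning to 2000 UMIs (136302 of 138226 cells kept, classes called again from the thinned counts), 2 UMIs of the marker, cells with both markers left out, stages fitted alone, each stage or library left out and, added after the data were seen, 3 E17.5 libraries left out and alternatives for the change of the class difference and for Pcna at E12.5. The labels' extraction protocol describes pairs matched by litter and sex; which embryos of a sex form a pair was taken from the replicate numbers in the titles, which name no litter. Deviations of paired libraries correlated at r = 0.106 to 0.817 in Sox2-detected cells (median 0.687, 16 of 16 above 0.1). In Eomes-detected cells they correlated at 0.0448 to 0.858 (median 0.636, 15 of 16 above 0.1). Each library was also set against those of the other genotype at its stage. The partner with its own number was the most alike for 24 of 32 libraries (Sox2-detected) and 25 of 32 (Eomes-detected).

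The rule for named genes takes all 10 members; where the text gives only some of them, these were chosen after their values were seen, and 1 likeness result is not reported here. Of each pathway list, genes named are among the 4 called genes with the largest change, or, with fewer than 2 called, the 2 with the lowest p. For likeness, the 3 genes with the highest Pearson r were taken among genes whose mean log2 CPM was 5 or more. The members and lists were chosen with earlier results of these data known. On simulated data the fit recovered 42% of genes changed 1.2-fold and 92% of those changed 1.5-fold in the averaged genotype contrast in Sox2-detected cells, and 30% and 88% in Eomes-detected cells. For the change from E12.5 to E17.5 in Sox2-detected cells it recovered 0% and 40%. The simulation gave every gene the same assumed spread and held no other stage or pair effects, so these shares need not hold for the real data. Positions are from GENCODE M21, in which 99.6% of the gene IDs were found. Python 3.11.15 with NumPy 2.4.6, SciPy 1.17.1 and pandas 2.3.3 was used for the matrices.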

Additional observations from a re-analysis of the deposited data

Results flagged for a closer look

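Among 160 groups of 4 libraries (10 genes, 8 groups and 2 classes), 11 held a library far from the other 3, and chance flags about 1 in 20 groups. In Sox2-detected cells these were Mcm6 in het M2 at E12.5 (280.717 CPM, the highest of its group), Mcm7 in WT F1 (252.213 CPM) and het F1 (252.889 CPM) at E14.5, both the lowest of their groups, Cdt1 in WT M1 at E17.5 (22.7952 CPM, lowest) and Gmnn in WT F2 at E17.5 (136.819 CPM, highest). In Eomes-detected cells, het M2 at E12.5 was the highest of its group for Mcm3 (122.96 CPM), Mcm6 (193.006 CPM) and Mcm7 (288.836 CPM). Cdc6 in WT F1 at E12.5 (19.7678 CPM), Gmnn in WT M2 at E12.5 (161.944 CPM) and Pcna in het M1 at E16.0 (212.29 CPM) were also the highest of their groups. Het M2 at E12.5 accounted for 4 of the 11, and its median UMI count was 10727 against 4166 to 6158 in the other het libraries of that stage.

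The gap between Eomes-only and Sox2-only cells differed between E12.5 and E17.5 for 9 genes in a test added after the data were seen. Of all genes, 27.5% moved in the same direction, and the calls on Mcm2, Mcm4, Mcm5 and Cdc6 were lost under some settings. The log2 change of the gap was 0.327562 for Mcm2, 0.707669 for Mcm3, 0.393589 for Mcm4, 0.666051 for Mcm5, 0.891616 for Mcm6 and 0.919837 for Mcm7. It was 1.15597 for Cdt1, 0.742076 for Cdc6 and 0.530321 for Pcna.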

How the results depend on the processing

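No member was called between genotypes on average over stages, and none in the genotype by stage test, under any alternative run. All 10 members stayed called and lower at E17.5 in WT Sox2-detected cells, and in Eomes-only against Sox2-only cells, under every alternative, with sizes that moved as given above. In Eomes-detected cells 7 (2 UMIs of the marker) to 10 members were called for the stage change. Smaller classes and thinning test fewer UMIs; other causes were not tested.

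Counts of genes called between genotypes on average moved by over 1.5 times. In Sox2-detected cells 66 genes were called, and 29 with no low-count filter, 8 in thinned cells, 123 with DESeq2, 41 at 2 UMIs of the marker, 27 with cells of both markers left out, and 13, 18 and 6 without E12.5, E14.5 or E16.0. In Eomes-detected cells 45 genes were called, and in the same order 24, 3, 80, then 17 with cells of both markers left out, and 16, 22, 13 and 29 without each stage in turn. Over all cells 53 were called, and 21 with no filter, 20 thinned, 119 with DESeq2, and 9, 16 and 7 without E12.5, E14.5 or E16.0. Leaving out single libraries gave 42 to 134, 29 to 153 and 32 to 81 genes.

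Blocking on the pair called 226, 162 and 221 genes in the 3 cell sets, and at single stages 2087 genes in Sox2-detected cells; 1 member was then called, Pcna at E12.5. DESeq2 and the fit without het M2 of E12.5 also called 1 member there, again Pcna, so that leaving out single libraries gave 0 to 1. In Sox2-detected cells 167 genes were called at single stages, and 1 thinned, 2 with each stage fitted alone, 56 with no filter, 89 with cells of both markers left out, 603 without the 3 E17.5 libraries and 944 with DESeq2. In Eomes-detected cells 65 were called, and in the same order 4, 0, 32, 4, 188 and 481, then 32 at 2 UMIs and 746 with the pair as a block. The genotype by stage test called 1 gene with DESeq2 in Sox2-detected and 2 with the block in Eomes-detected cells. From E12.5 to E17.5 in WT, 8286 and 6647 genes were called in the 2 classes, and 5328 and 3666 thinned. The block changed no other call on a member between genotypes.

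Small averaged genotype differences changed sign. In Sox2-detected cells these were Mcm6 (-0.000224) and Mcm7 (-0.00743) with no filter, Mcm3 (-0.0300) and Mcm6 (-0.0332) thinned, Mcm6 (-0.00136) and Mcm7 (-0.0154) at 2 UMIs, and Mcm3 (-0.0163), Mcm6 (-0.0239) and Mcm7 (-0.0325) without the 3 E17.5 libraries. Without E12.5 Mcm7 was at -0.0166, without E14.5 Mcm6 at -0.0166 and Mcm7 at -0.00175, without E16.0 Mcm6 at -0.00936 and Mcm7 at -0.0136, and without E17.5 Mcm4 at 0.00830. In Eomes-detected cells Gmnn was at 0.0424 thinned, 0.0125 at 2 UMIs, 0.0230 with cells of both markers left out, 0.0158 without the 3 libraries and 0.000716 without E17.5. Mcm7 was at 0.0191 with cells of both markers left out and 0.0399 without E17.5, and Mcm4 at -0.00387 without E14.5. Over all cells Mcm4 was at -0.0247 without E12.5, Mcm6 at -0.0125 without E14.5 and Mcm7 at 0.0457 without E17.5. The change of the class difference of Gmnn was -0.00640 at 2 UMIs.

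Leaving out single libraries also changed signs of averaged differences. In Sox2-detected cells Mcm4 lay between -0.0475 and 0.00216, Mcm6 between -0.0199 and 0.0336 and Mcm7 between -0.0163 and 0.0226. In Eomes-detected cells Mcm4 lay between -0.0227 and 0.0507, Mcm6 between -0.00353 and 0.0775, Mcm7 between -0.0326 and 0.0152 and Gmnn between -0.0669 and 0.0232. Over all cells the ranges were -0.0232 to 0.0433 (Mcm4), -0.00825 to 0.0486 (Mcm6) and -0.0350 to 0.0171 (Mcm7).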
